A study of Mus musculus with 18 samples.

Results

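Toll-like receptor sensing was followed in mouse germinal centre B cells through 10 genes: the receptors Tlr1, Tlr2, Tlr4, Tlr6, Tlr7 and Tlr9, the adaptor Myd88, the receptor-like Cd180 with its partner Ly86, and the trafficking protein Unc93b1. They were found by gene symbol, and all 10 matched among the 30452 genes of the RNA sequencing tables. The set was chosen by name with earlier results of these data known. Among the measured values behind that choice was the 12 h TPM difference of Tlr6, which is therefore given as a description, and no test of it is read as a result.

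Toll-like receptors bind microbial products through leucine-rich repeats and signal through a cytoplasmic TIR domain. TLR1 and TLR6 pair with TLR2 at the cell surface to bind bacterial lipopeptides, TLR4 binds lipopolysaccharide, and TLR7 and TLR9 bind RNA and DNA in endosomes, where UNC93B1 delivers them. All of these receptors can signal through MYD88. CD180 resembles TLR4 outside the cell but lacks a TIR domain, is held at the B cell surface with MD-1, the product of Ly86, and can drive B cell proliferation when cross-linked.

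The cells were light zone germinal centre B cells (B220+ CD38- CD95+ CD83hi CXCR4lo) from the popliteal lymph node of C57BL/6 mice. All donor cells carried B1-8hi, a heavy chain gene giving affinity for the hapten NP. Hosts primed with ovalbumin in alum 2 weeks before transfer received 15% Ly75+/+ CD45.1 cells (DECP) with 85% Ly75-/- CD45.1/2 cells (DECN), and were immunised with NP-OVA in the footpads. Ly75 encodes the endocytic receptor DEC205, and every host was given anti-DEC205-OVA, an antibody that carries antigen to DEC205, on day 6, so DECP and DECN cells shared the host's treatment and differed in Ly75. Cells sorted 12 h later gave 3 DECP and 3 DECN libraries. Cells sorted at 24 h gave 4 DECP libraries, 4 DECN libraries and 4 libraries of DECP cells from hosts that also received 2.5 mg/kg of rapamycin, which inhibits mTORC1, together with the antibody. There was no DECN group from rapamycin-treated hosts among the libraries analysed. Whether replicate libraries came from different animals is not recorded in the labels, so p-values measure only library-to-library spread, part of which may be technical.

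Expression is given as TPM, a share of all transcripts scaled for gene length, so that genes can be compared within a library. Between 13114 and 13597 genes per library reached 1 TPM at 12 h, and between 11128 and 12244 at 24 h. The 12 h and 24 h tables stand apart and levels were not compared between them. Ly75 was higher in every DECP library (26.0 to 39.6 TPM at 12 h) than in every DECN library (8.53 to 10.1 TPM), and again at 24 h (10.3 to 18.1 against 2.76 to 6.66 TPM). Transcripts of Ly75 were thus still counted in cells labelled as knockout, and the exons they came from were not examined. The B cell markers were present in all groups, with a summed level of 6 genes of 1571 TPM or more in each library. One rapamycin library, replicate 2, stood apart from the other 3 of its group in several genes named below.

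Tlr1 (chr5:64924679-64933563) and Tlr6 (chr5:64952031-64960097) are neighbours on the reverse strand of GRCm38, 18467 bases apart, and their coding sequences are in part identical. The longest identical run was 229 bases. Of the 31-base words in the annotated transcripts, 607 were shared, which is 18.3% of those of Tlr1 and 16.4% of those of Tlr6. A read that holds only such shared words has to be divided between both genes by an estimate. The following stretch of coding sequence, 5′ to 3′ on the sense strand, which is the reverse strand of the genome, shows the end of that run, and is given because reads within its identical part cannot be assigned to either gene with certainty. The first 60 bases are the same, and the capital letter marks the only base among 90 that differs and tells the genes apart.
Tlr1, chr5:64925507-64925596: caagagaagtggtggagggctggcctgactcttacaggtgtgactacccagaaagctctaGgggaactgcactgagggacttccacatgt
Tlr6, chr5:64953798-64953887: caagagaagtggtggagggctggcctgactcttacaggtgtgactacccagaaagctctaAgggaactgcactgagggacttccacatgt

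Other members shared less. Tlr2, Tlr7, Tlr9 and Unc93b1 (chr19:3935186-3949340) shared no 31-base word with another gene. Myd88 (chr9:119335934-119341411) shared 232 of its 2597 words (8.93%) with Acaa1a, a peroxisomal thiolase gene that overlaps it by 1736 bases on the opposite strand. Cd180 (chr13:102693558-102739629) shared 157 words (3.46%) with Mast4, a kinase gene on the opposite strand. The library kit does not mark strand, so reads from these overlaps cannot be told apart.

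**Figure D1:**
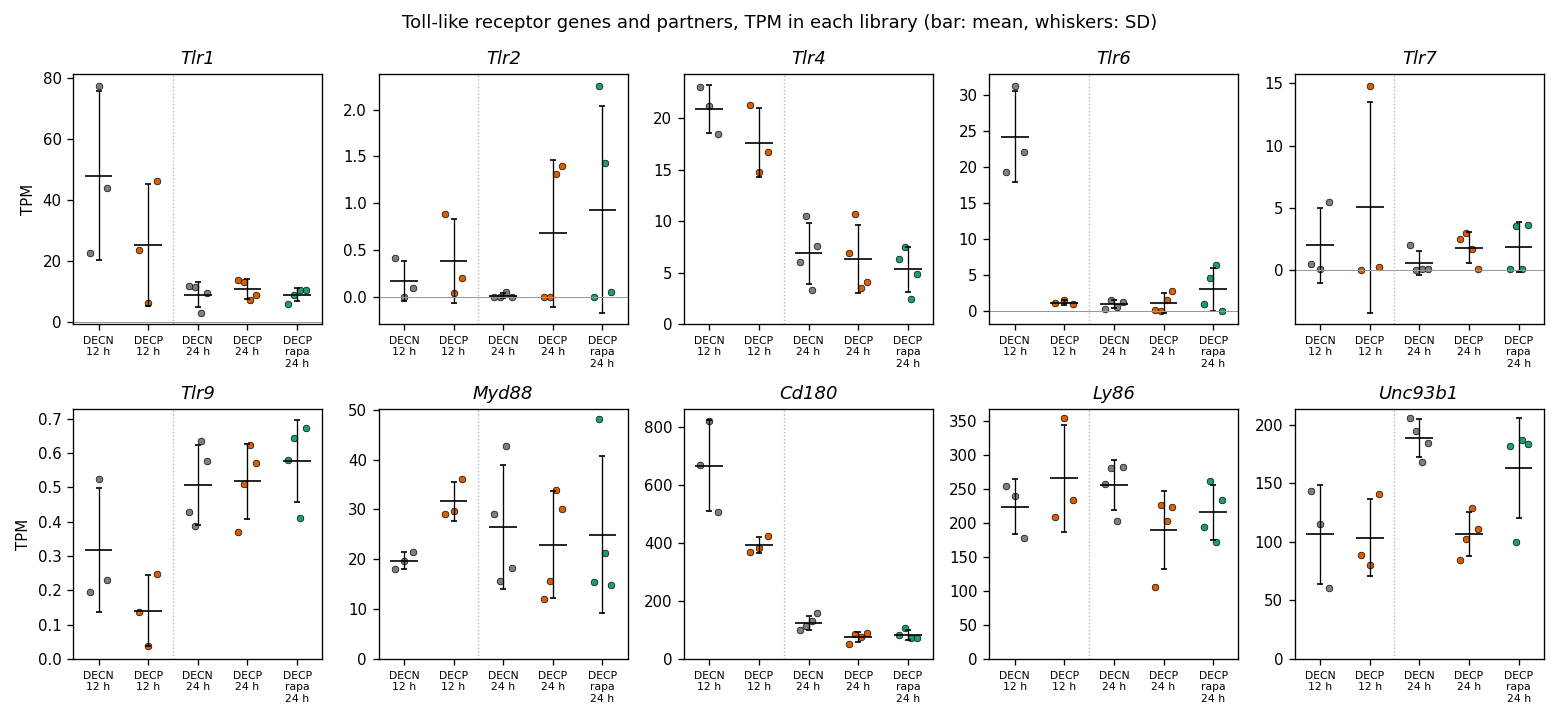
TPM (y axis, linear, own range per panel) of each of the 10 genes in the 18 libraries. Points are libraries, horizontal bars group means and whiskers the SD, and the dotted line separates the 12 h and 24 h tables. The 3 DECN libraries at 12 h reach 19.3 to 31.2 TPM of Tlr6 and the 3 DECP libraries 0.968 to 1.55 TPM, while at 24 h the 4 DECN libraries exceed all 4 untreated DECP libraries for Unc93b1 and Cd180.

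The genes covered a wide range of levels. Cd180 was the highest at 12 h, with a mean of 529 TPM over the 6 libraries, rank 274 from the top of all genes, followed by Ly86 at 245 TPM and Unc93b1 at 105 TPM. At 24 h Ly86 led with 220 TPM over the 12 libraries, followed by Unc93b1 at 153 TPM and Cd180 at 94.7 TPM. The receptors themselves were lower: the highest was Tlr1, at 36.8 TPM at 12 h and 9.70 TPM at 24 h.

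The first comparison, DECP against DECN at 12 h, asks what differed soon after the antibody. Tlr6 was at 1.18, 1.55 and 0.968 TPM in the DECP libraries and at 19.3, 31.2 and 22.1 TPM in the DECN libraries. Every DECN library was thus more than 10 times as high as any DECP library. The log2 difference on the TPM + 1 scale was -3.48, a value that was known when the genes were chosen and is given as a description. The authors' deposited table gives mean normalized counts of 29.1 for DECP and 545 for DECN cells, so the gene was well detected in DECN cells. In bulk libraries such as these, fewer cells with a transcript and less RNA per cell cannot be told apart.

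Tlr1, its neighbour, varied widely within both groups. It was at 23.9, 6.36 and 46.2 TPM in DECP and at 22.7, 77.5 and 43.9 TPM in DECN libraries. The groups overlapped, and the log2 change of -1.09 (SE 0.71) did not pass the test (limma adjusted p = 0.455). Added together, Tlr1 and Tlr6 came to 26.7 ± 19.7 TPM (SD, n = 3; range 7.90 to 47.2) in DECP and 72.3 ± 33.8 TPM (SD, n = 3; range 42.0 to 109) in DECN libraries. The summed levels overlap, with a ratio of means of 0.370. The Tlr6 share of the sum ran from 2.05% to 19.6% in DECP and from 28.7% to 45.9% in DECN libraries. Both the sum and the share use the 12 h Tlr6 values known when the genes were chosen, so they are given as a description. How the shared reads were divided was not tested.

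**Figure D2:**
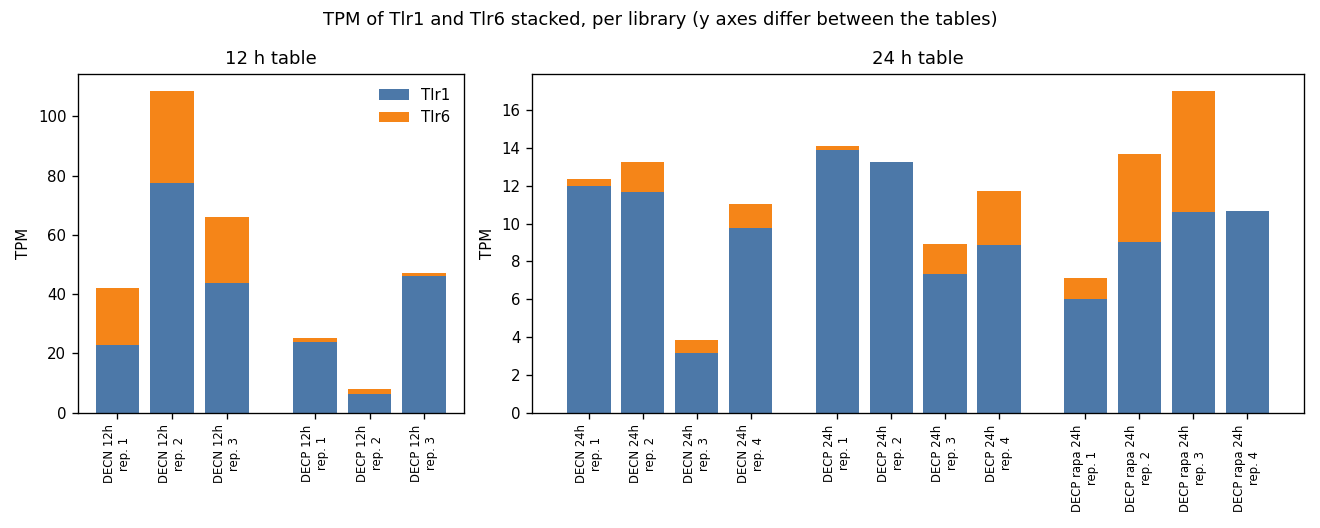
Stacked bars of TPM (y axis, from 0, different range per table) of Tlr1 and Tlr6 in each library. At 12 h Tlr6 makes up 28.7% or more of the bar in DECN libraries and 19.6% or less in DECP libraries, while the heights overlap (42.0 to 109 against 7.90 to 47.2 TPM). The Tlr6 values at 12 h were known when the genes were chosen, so these shares are a description.

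Of the 10 genes, 7 passed the filter on low values at 12 h, 1 TPM or more in 3 libraries, and Tlr2, Tlr7 and Tlr9 did not. Leaving aside Tlr6, none of the other 6 passed the limma test, beside 2.89% of the 13429 genes tested, and 2 had an unadjusted p under 0.05, beside 19.9%. That background depended on each library: with any 1 of the 6 left out, between 0 and 91 genes were called in place of 388. Groups did not overlap for 2 of these 6, against 26.3% of all genes tested. The median log2 change was -0.12 for the 6 genes and -0.05 for all genes tested.

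Cd180 and Myd88 were the 2 genes concerned. Cd180 was at 370, 384 and 423 TPM in DECP and at 670, 821 and 508 TPM in DECN libraries, so all DECP libraries were lower. The log2 change was -0.74 (SE 0.20), which did not pass the test over all genes (limma adjusted p = 0.0959). Myd88 was at 29.1, 29.7 and 36.1 TPM in DECP and at 18.1, 19.7 and 21.4 TPM in DECN libraries, so all DECP libraries were higher. Its log2 change was 0.65 (SE 0.22; limma adjusted p = 0.163). In the authors' deposited table the adjusted p was 0.0289 for Cd180 and 0.0288 for Myd88, and 10.7% of the genes with a value there were under 0.05.

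The overlapping neighbours leaned the same way as these genes at 12 h. Acaa1a was at 23.9 ± 3.38 TPM in DECP against 13.8 ± 3.67 TPM in DECN libraries (SD, n = 3 each), and Mast4 at 61.5 ± 5.32 and 101 ± 32.7 TPM. Neither passed the test (limma adjusted p = 0.189 for Acaa1a and 0.260 for Mast4), and their part in the values of Myd88 and Cd180 was not tested.

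Toll-like receptor genes are also used by macrophages, whose 12 markers were summed. The sum was 675 to 840 TPM in DECP and 1280 to 1665 TPM in DECN libraries at 12 h. Nearly all of it was Apoe, a lipid carrier, which fell in DECP relative to DECN (log2 change -0.91, limma adjusted p = 0.0374). That call was lost without any 1 of the 6 libraries, at adjusted p-values up to 0.128. Only Apoe was called of the 5 markers tested, whose median log2 change was -0.10. Of the 12 markers, 5 averaged 1 TPM or more in DECP and 8 in DECN libraries. The remaining 11 markers summed to 18.4 to 49.5 TPM in DECP and 49.2 to 64.5 TPM in DECN libraries, and C1qa, C1qb, C1qc and Adgre1, which define macrophages, averaged 1.31 TPM or less in both groups. The part of such cells in the values of Tlr6, Cd180 and Myd88 was not tested.

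Ly86, whose product holds CD180 at the surface, was at 208, 355 and 233 TPM at 12 h in DECP and at 255, 239 and 178 TPM in DECN libraries. Its groups overlapped. Unc93b1 was at 88.7, 80.4 and 141 TPM in DECP against 144, 115 and 60.7 TPM in DECN libraries, again with overlap. Tlr4 was at 14.8 to 21.3 TPM in DECP against 18.5 to 23.1 TPM in DECN libraries. None of these 3 genes passed the test.

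Tlr7 was read in few libraries at 12 h. It reached 14.8 TPM in DECP replicate 2 and 5.46 TPM in DECN replicate 3, and lay at 0.468 TPM or below in the other 4. Tlr9, the DNA receptor, stayed at 0.526 TPM or less in each of the 6 libraries, and Tlr2, the partner of TLR1 and TLR6, at 0.888 TPM or less. The authors' deposited table gives mean normalized counts of 4.53 and 9.66 for Tlr9 and of 10.6 and 4.54 for Tlr2 in DECP and DECN cells. Neither gene was tested at 12 h.

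At 24 h DECP and DECN cells were compared again, 12 h further from the antibody. Unc93b1 was at 84.3, 102, 129 and 111 TPM in DECP and at 206, 195, 168 and 184 TPM in DECN libraries. All 4 DECP libraries were lower than all 4 DECN libraries, and Unc93b1 fell relative to DECN with a log2 change of -0.83 (SE 0.20, limma adjusted p = 0.0375). It was the only gene called of the 9 that passed the filter, Tlr9 being the exception, beside 4.04% of the 12783 genes tested. The call lies near the threshold. It was lost without DECP replicate 1, 2 or 4, any 1 of the 4 DECN replicates or rapamycin replicate 4, at adjusted p-values up to 0.114, while the log2 change stayed between -0.72 and -0.92 whichever library was left out. It was also lost without the filter, without the intensity trend and with the replicate block, at adjusted p-values up to 0.0944.

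Cd180 was the other gene whose 24 h groups did not overlap, as for 11.5% of all genes tested. It was at 52.7, 86.5, 75.6 and 90.9 TPM in DECP and at 99.0, 112, 130 and 157 TPM in DECN libraries, all DECP libraries being lower. The log2 change of -0.71 (SE 0.21) did not pass over all genes (limma adjusted p = 0.0825). In the authors' deposited table the adjusted p was 0.00179 for Unc93b1 and 0.00969 for Cd180, with 9.1% of genes called there. Mast4, its overlapping neighbour, was at 27.0 ± 4.96 TPM in DECP against 28.5 ± 2.05 TPM in DECN libraries at 24 h (SD, n = 4 each).

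Ly86 was at 106, 226, 203 and 223 TPM in DECP and at 257, 281, 203 and 282 TPM in DECN libraries. The groups overlapped only through DECN replicate 3, and the gene did not pass the test (limma adjusted p = 0.298). Myd88 spread from 12.0 to 33.9 TPM in DECP and from 15.6 to 42.8 TPM in DECN libraries, so its groups overlapped at 24 h. The median log2 change was -0.13 for the 9 genes and 0.00 for all genes tested.

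The surface receptors were low in both groups at 24 h. Tlr6 was at 0.174, 0, 1.60 and 2.85 TPM in DECP and at 0.366, 1.58, 0.681 and 1.27 TPM in DECN libraries, with full overlap. Tlr1 was at 10.8 ± 3.24 TPM in DECP against 9.16 ± 4.10 TPM in DECN libraries, and Tlr4 at 6.33 ± 3.31 and 6.88 ± 2.97 TPM (SD, n = 4 each). The difference between the times in the DECP minus DECN contrast was tested over 15085 genes, of which 0.776% were called. None of the 9 genes tested passed in limma. The only one with an unadjusted p under 0.05, beside 10.2% of all genes tested, was Tlr6, whose 12 h values enter that difference, so nothing is read from it.

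Among the endosomal receptors at 24 h, Tlr7 was near 0 in some libraries and well above it in others. It was at 2.46, 2.998, 1.68 and 0.0635 TPM in DECP libraries and at 2.01, 0.0354, 0.0489 and 0.0890 TPM in DECN libraries. Tlr9 stayed between 0.370 and 0.673 TPM in all 12 libraries, below the filter, with mean normalized counts of 11.1 to 12.4 in the authors' deposited tables. Tlr2 was at 0, 0, 1.32 and 1.40 TPM in DECP libraries, at 0 in 3 of the 4 DECN libraries and 0.0568 TPM in the other, and at 0, 2.25, 1.43 and 0.0490 TPM in treated libraries.

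**Figure D3:**
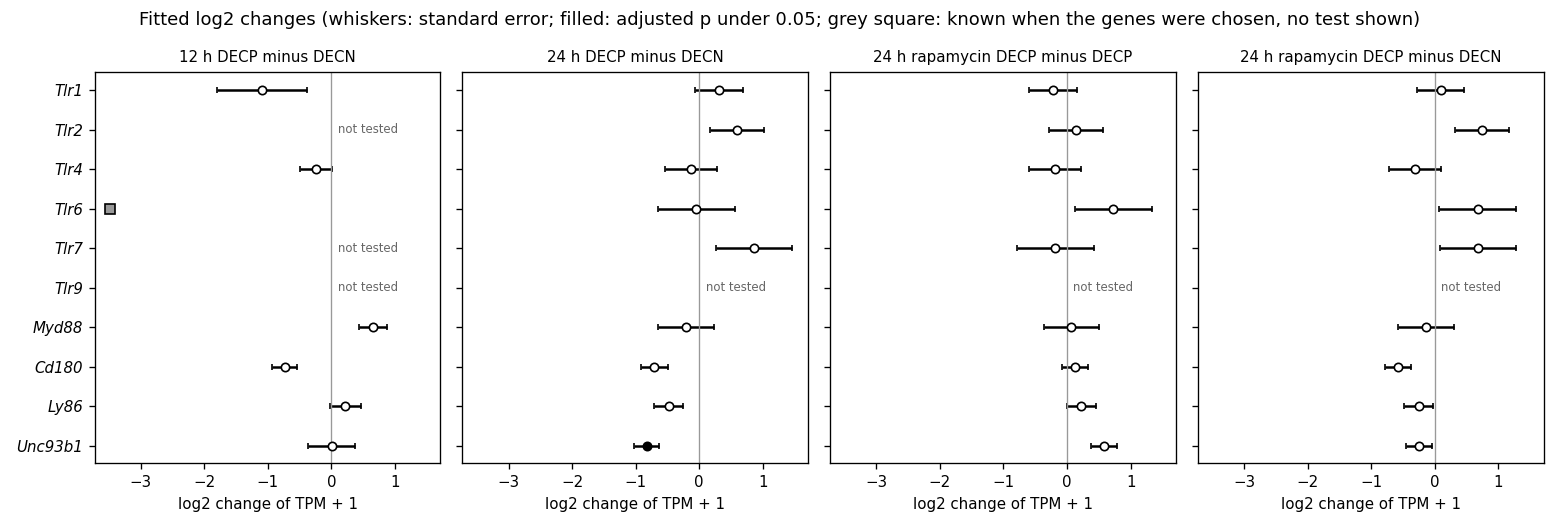
Fitted log2 change of TPM + 1 (x axis) for each gene (y axis) in 4 comparisons, with the standard error as whiskers. The filled point, Unc93b1 in DECP minus DECN at 24 h (-0.83), has an adjusted p under 0.05 over all genes tested, and the grey square is Tlr6 at 12 h (-3.48), shown as a value with no test because it was known when the genes were chosen.

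Rapamycin-treated DECP cells were set against both untreated groups at 24 h. These comparisons share libraries with each other and with the one above, so their values are given side by side. Unc93b1 was at 182, 99.4, 187 and 183 TPM in the treated libraries. In 3 of the 4 it lay in the range of the DECN libraries (168 to 206 TPM), and in replicate 2 it lay in that of untreated DECP (84.3 to 129 TPM). The log2 change against untreated DECP was 0.58 (SE 0.20), which did not pass (limma adjusted p = 0.188). Without rapamycin replicate 2 it was 0.80 and passed (limma adjusted p = 0.0269). This was the only 1 of the 12 libraries whose removal gave a call. Without any other library the gene did not pass, at limma adjusted p-values up to 0.406, nor did it under any of the 11 other settings. The authors' deposited table gives an adjusted p of 0.0539.

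Cd180 was at 82.9, 107, 70.6 and 71.1 TPM in treated libraries, beside 52.7 to 90.9 TPM in untreated DECP, and only replicate 2 lay in the DECN range of 99.0 to 157 TPM. Against DECN the log2 change was -0.58 (SE 0.21) and did not pass (limma adjusted p = 0.240). Against untreated DECP the gene did not pass either (limma adjusted p = 0.853; 95% interval of the log2 change -0.32 to 0.58).

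None of the 9 genes tested passed in limma in treated against untreated DECP, where 2.18% of genes were called, or in treated DECP against DECN, where 1.31% were called. In each of these comparisons 1 gene had an unadjusted p under 0.05, Unc93b1 and Cd180 respectively, beside 13.9% and 13.3% of all genes tested. In the authors' deposited tables none passed either, with 7.58% and 4.38% of genes called. Ly86 was at 171 to 262 TPM, Tlr1 at 6.01 to 10.7 TPM, and Tlr4 at 2.48 to 7.54 TPM in treated libraries. Myd88 was at 15.5, 48.2, 21.2 and 14.8 TPM, replicate 2 again standing apart. Tlr6 was at 1.10, 4.66, 6.42 and 0 TPM and Tlr7 at 0.0967, 3.51, 0.0411 and 3.61 TPM.

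The rest of the pathway was described over 70 further genes in 9 lists: receptors, coreceptors, folding and processing factors, adaptors, kinases and ubiquitin ligases, inhibitors, interferon regulatory factors, cytokine receptors that use MyD88, and other sensors. At 12 h 57 were tested and 1 was called, beside 2.89% of all genes tested. At 24 h 54 were tested, with 1 called in DECP against DECN, beside 4.04% of all genes tested. In treated against untreated DECP 1 was called, beside 2.18%, and in treated DECP against DECN none, beside 1.31%. These counts are not read as a result about the pathway. The gene called at 12 h was Il1r2, which was higher in DECP (27.5 ± 11.7 against 0.870 ± 1.06 TPM, SD, n = 3 each). Its log2 change was 3.98 (limma adjusted p = 0.0179). It reached 1 TPM in all 3 DECP libraries but in only 1 of the 3 DECN libraries, so it passed the filter through the group where it was high. The call held without DECP replicate 3 and was lost without any other library, at adjusted p-values up to 0.0820. It was also lost without the filter and with the replicate number as a block, at up to 0.0679. Il1r2 is a decoy receptor that binds interleukin 1 without signalling, so it does not itself use MyD88 despite its list.

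Irf5, a transcription factor activated downstream of MyD88 by endosomal receptors, was the gene called at 24 h. It was at 27.4, 28.7, 23.7 and 27.5 TPM in DECP, at 53.0, 60.8, 48.1 and 56.2 TPM in DECN and at 42.4, 38.4, 46.3 and 51.6 TPM in treated DECP libraries. All untreated DECP libraries were below all libraries of the other groups. Irf5 fell in DECP relative to DECN (log2 change -0.99, SE 0.16, limma adjusted p = 0.00386) and was higher with rapamycin than without (0.71, SE 0.16, limma adjusted p = 0.0345). The first of these calls held with each of the 12 libraries left out, at adjusted p-values up to 0.0180. The second was lost in 10 of the 12, all but DECN replicate 3 and treated replicate 2, at adjusted p-values up to 0.112 and a log2 change of 0.64 to 0.78. It was also lost without the intensity trend, with the replicate block and with only the groups compared, at up to 0.127. At 12 h it was at 59.96 to 75.6 TPM in DECP against 74.6 to 95.1 TPM in DECN libraries and was not called.

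The most abundant gene of each list was called in no comparison apart from Irf5, Il1r2 and the 10 genes above. At 12 h these were Cnpy4 (546 TPM over the 6 libraries), a relative of the receptor chaperone CNPY3, Chuk (442 TPM), a kinase of the NF-κB pathway, Dhx58 (285 TPM), an RNA sensor of the RIG-I family, Tirap (153 TPM), an adaptor that brings MyD88 to TLR2 and TLR4, Tnip2 (92.0 TPM), an inhibitor of NF-κB signalling, and Irf3 (76.5 TPM). At 24 h they were Ctss (389 TPM), a protease that cleaves endosomal receptors, Ube2n (63.6 TPM), a ubiquitin-conjugating enzyme, Ddx58 (40.6 TPM), which encodes RIG-I, Pik3ap1 (25.0 TPM), a phosphoinositide 3-kinase adaptor, and Tnip2 (19.3 TPM).

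Receptors outside the 10 were low. At 12 h Tlr13 was at 2.40 ± 0.42 TPM in DECP against 3.57 ± 0.12 TPM in DECN libraries and Tlr3 at 1.81 ± 0.28 and 1.73 ± 0.57 TPM (SD, n = 3 each), while Tlr5, Tlr8, Tlr11 and Tlr12 stayed below 1 TPM. At 24 h Tlr12 reached 3.43 TPM in 1 treated library, and the other 5 receptors averaged 0.696 TPM or less in each group. Of the TLR4 accessory genes, Ly96, which encodes MD-2, was at 19.0 ± 2.66 and 11.4 ± 2.64 TPM at 12 h, and Cd14 was at 0.0901 and 0.0548 TPM on average.

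Some markers of the B cell list moved with Unc93b1 and Irf5 at 24 h. Cd79a, which encodes a signalling chain of the B cell receptor, was at 342 ± 64.8 TPM in DECP, 582 ± 62.1 TPM in DECN and 572 ± 107 TPM in treated DECP libraries (SD, n = 4 each). It fell in DECP relative to DECN (log2 change -0.78, limma adjusted p = 0.0204) and was higher with rapamycin (0.74, limma adjusted p = 0.0378). The first call was lost without DECP replicate 1 or 3 or DECN replicate 1 or 4, at adjusted p-values up to 0.0645. The second was lost without DECP replicate 1, 2 or 3, DECN replicate 1 or 2 or treated replicate 1, 3 or 4, at adjusted p-values up to 0.112. In treated replicate 2, the library low in Unc93b1, it was at 413 TPM against 614 to 644 TPM in the other 3. The 6 B cell markers together came to 1736 to 2460 TPM in DECP, 3130 to 3791 TPM in DECN and 2728 to 3257 TPM in treated libraries, and 3 of them (Ms4a1, Cd79a and Cd79b) fell in DECP relative to DECN. Cd79b was also higher with rapamycin than without (1341 against 955 TPM, log2 change 0.49, limma adjusted p = 0.0234), which was lost without DECP replicate 1 or 3 or treated replicate 1 or 3, at adjusted p-values up to 0.0728. Their part in the values of Unc93b1 and Irf5 was not tested.

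The 12 macrophage markers summed to 412 to 623, 1033 to 1130 and 620 to 1190 TPM in DECP, DECN and treated libraries at 24 h. Apoe again made up nearly all of it, and fell in DECP relative to DECN (log2 change -1.07, limma adjusted p = 0.00647). That call held with each of the 12 libraries left out. Only 2 of the 12 markers were tested at 24 h. Their median log2 change was -0.37 in DECP against DECN and 0.58 in treated against untreated DECP. In the first of these comparisons the other tested marker changed the opposite way and was not called. Apoe was higher with rapamycin than without (log2 change 0.79, limma adjusted p = 0.0415). That call held only without treated replicate 2 and was lost without any other library, at adjusted p-values up to 0.118. In treated replicate 2 it stood at 597 TPM, against 824 to 1178 TPM in the other 3. Of the 12 markers, 2, 5 and 3 averaged 1 TPM or more in DECP, DECN and treated libraries. Without Apoe the sums were 6.06 to 11.7, 6.95 to 19.3 and 10.3 to 26.1 TPM. The medians of these sums were 7.71, 17.4 and 17.5 TPM in DECP, DECN and treated libraries. With Apoe the medians were 533, 1098 and 961 TPM. C1qa, C1qb, C1qc and Adgre1 were listed at 0 in all DECP and treated libraries and averaged 0.335 to 2.67 TPM in DECN. Each was at 0 in 2 or 3 of the 4 DECN libraries. The part of other cells in the value of Unc93b1 was not tested.

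The dendritic cell, the neutrophil and monocyte, and the T cell lists summed to less than the macrophage list. By median, the plasma cell list summed to more than the macrophage list only in untreated DECP libraries at 24 h (979 against 533 TPM). It ranged there from 751 to 1099 TPM. In every other group its median was below that of the macrophage list. The 6 dendritic cell markers summed to 32.4 to 40.3 TPM at 12 h and 9.32 to 23.7 TPM at 24 h, led by Zbtb46 and Flt3. Itgax was at 0 in all libraries of DECP at 12 h and of DECN and treated DECP at 24 h, and at 0.162 TPM or less elsewhere. S100a8 and S100a9 of the neutrophil and monocyte list were at 0 in all 18 libraries. Of the T cell list, Cd3d was higher in DECP than DECN at 24 h (41.1 against 16.1 TPM, log2 change 1.29, limma adjusted p = 0.00528), which held with each of the 12 libraries left out. It was also higher in treated DECP than in DECN (36.5 against 16.1 TPM, log2 change 1.12, limma adjusted p = 0.0281), which was lost without any 1 of the DECN libraries or treated replicate 1, 2 or 4, at adjusted p-values up to 0.0885. Of the 6 T cell markers 2 were tested at 24 h, with median log2 changes of 0.43 and 0.38 in these comparisons. The other tested marker changed the opposite way in both and was not called. Jchain, of the plasma cell list, averaged 544 TPM at 12 h and 766 TPM at 24 h. It was lower in treated than in untreated DECP (562 against 949 TPM, log2 change -0.77, limma adjusted p = 0.0375), which held only without DECP replicate 1, DECN replicate 2 or treated replicate 3 and otherwise reached adjusted p-values up to 0.114. Of the 5 plasma cell markers 2 were tested there, with a median log2 change of -0.20. The other tested marker changed the opposite way and was not called. Mef2b, of the germinal centre list, averaged 190 TPM at 24 h. The 6 markers of that list summed to 632 to 729 TPM in DECP, 667 to 1054 TPM in DECN and 517 to 758 TPM in treated libraries. Their median log2 change was -0.22 in DECP against DECN and 0.03 in treated against untreated DECP.

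**Figure D4:**
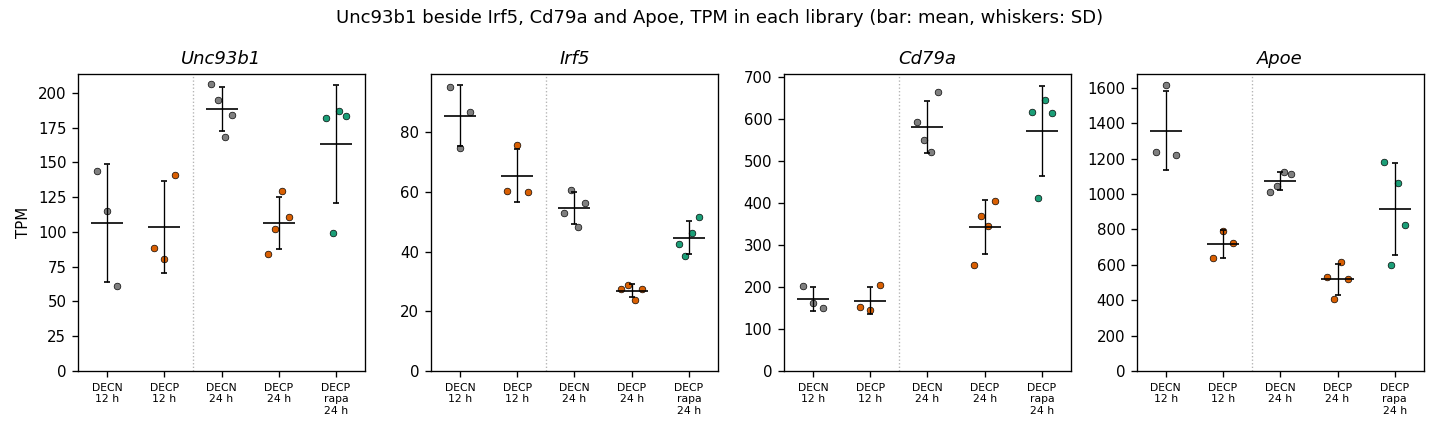
TPM (y axis, from 0) of Unc93b1, Irf5, Cd79a and Apoe in each library, with group means as bars and the SD as whiskers. At 24 h the untreated DECP libraries are below all DECN libraries for each of the 4 genes, and treated replicate 2, the second point of its group, is the lowest of its group for each.

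Genes whose levels followed Unc93b1 most closely were sought by Pearson's r over the 18 libraries, each gene centred within its table, among 7885 genes with a mean TPM of at least 5. They were Cd79a (r = 0.87), Mif4gd (0.86) and H2-Eb1 (0.85), the last encoding a chain of MHC class II. H2-Eb1 was at 2007 ± 228 TPM in DECP, 3291 ± 178 TPM in DECN and 2990 ± 144 TPM in treated libraries at 24 h (SD, n = 4 each). The libraries hold the group differences described above, so the correlations include them. For Tlr7 the nearest were Ffar2 (0.82), Mettl8 (0.78) and Knop1 (0.77), and for Tlr2 Slc43a3 (0.74), 1700037H04Rik (0.67) and Rabep1 (0.66). Both genes are near 0 in most libraries, so a few libraries set these values.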

How the data were processed

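RNA was measured in 18 libraries made with Nextera XT, per the labels' protocols, and quantified with kallisto 0.43.0 on GRCm38, per the submitters' processing notes. The authors deposited a score per gene and library that is TPM plus 1, from which 1 was subtracted. TPM holds no read depth, so that of each library is unknown. The authors also deposited 4 comparison tables, which per the file headers hold mean normalized counts per group (a signal pooled over libraries), log2 fold changes with standard errors, and p-values with adjusted p-values. Their statistical tool is not named in the labels or headers.

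Genes reaching 1 TPM in as many libraries as the smallest group were tested with limma 3.58.1 in R 4.3.3, on log2(TPM + 1) with an intensity trend, two-sided, with Benjamini-Hochberg adjustment over all genes tested and a threshold of 0.05. Fold changes on this scale understate low genes. The 12 h fit used 6 libraries, the 24 h fit all 12 and the difference between times all 18. On simulated data the pipeline was tested with 200 changed genes per comparison. The members and lists were chosen with earlier results of these data known. Named are all 10 members, listed genes that passed the test, the most abundant gene of each list per table, and the 3 nearest genes of the 3 members with the widest range of 24 h group means. Ly75, Ly96, Cd14, the other receptors, Acaa1a and Mast4 were added as checks after their values were seen. One marker gene that this rule names is not reported here. Groups and replicate numbers come from the titles. Coordinates are from GENCODE release M21. The extraction protocol names more conditions than the 5 groups analysed. Alternatives covered pseudocount, filter, scaling, trend, the replicate block, each library left out and, at 24 h, the second library index as a term and only the groups compared. Il1r2, Irf5 and the marker genes called were put through them too, a step added after seeing the data. Plots were made with matplotlib 3.10.9.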

Additional observations from a re-analysis of the deposited data

Results flagged for a closer look

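In 3 of the 30 gene and group combinations of 4 libraries that were checked, 1 library lay far from the other 3; chance alone gives about 1 in 20. Unc93b1 in rapamycin-treated DECP cells at 24 h was at 99.4 TPM in replicate 2 and at 182 to 187 TPM in the others. Tlr7 in DECN cells at 24 h was at 2.01 TPM in replicate 1 and at 0.0890 TPM or less in the others. Tlr2 in DECN cells at 24 h was at 0.0568 TPM in replicate 3 and at 0 in the others, a gap too small to read anything from.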

How the results depend on the processing

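The count of members called at 12 h was 0 with the replicate block and 0 to 1 with a library left out, against 1; that gene is Tlr6, which was chosen with this difference known, so the count is not read as a test. For DECP against DECN at 24 h the count of 1 became 0 without a filter, without the intensity trend and with the replicate block, 2 with quantile normalization, where Cd180 was added, and 0 to 1 with a library left out. For treated against untreated DECP it was 0, and 0 to 1 with a library left out. For treated DECP against DECN it was 0 under all alternatives. For the difference between times it was 0, but 1 (Tlr6) with a pseudocount of 5 and 0 to 1 with a library left out, the 1 being without rapamycin replicate 4. The cause of these changes was not tested. Among the other genes named, the block also ended the calls of Apoe and Il1r2 at 12 h, of Irf5, Cd79a and Cd79b in treated against untreated DECP, and of Cd3d in treated DECP against DECN. Without the filter or the trend, calls of Apoe at 12 h, Cd79a at 24 h and Apoe, Cd79a, Cd79b and Jchain in treated against untreated DECP and of Cd3d in treated DECP against DECN were lost too, as was that of Ms4a1 at 24 h without the trend; with only the groups compared, Apoe, Cd79a, Cd79b, Irf5 and Jchain lost theirs in treated against untreated DECP, and Apoe also did there with median centring or the second index as a term and Jchain with quantile normalization. Deviations of same-numbered libraries from their group means correlated by -0.06 to 0.09, and those of differently numbered libraries by -0.08 to 0.07. With so few libraries per group these values cannot show whether same-numbered DECP and DECN libraries came from one host, which the labels do not record. The ratio of summed Tlr1 and Tlr6 in DECP over DECN at 24 h was 1.18, and 0.982 to 1.32 with a library left out, turning at DECN replicate 3; at 12 h it was 0.370, and 0.228 to 0.500. Calls over all genes ranged between 0 and 595 at 12 h, 182 and 624 for DECP against DECN at 24 h, 0 and 345 for treated against untreated DECP, 22 and 198 for treated DECP against DECN, and 59 and 186 for the difference between times. Of 34 further member changes, all uncalled, 17 turned sign under at least 1 alternative and none passed the threshold. With TPM alone, counting error per library could not be computed.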
